A study of Homo sapiens with 16 samples.

Results

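The genes described here are 31 genes of cholesterol synthesis and sterol regulation, taken by symbol from the 26485 gene symbols of the total RNA files. They comprise 8 genes of the mevalonate and isoprenoid steps, 11 of the squalene and sterol ring steps, 7 of sterol sensing and 5 of sterol traffic, storage and export. All 31 were listed in each of the 16 libraries. They were measured in the human breast cancer line MDA-MB-231, which is triple-negative, as ribosome footprints (RPF, stretches of mRNA that ribosomes protect while the rest is digested) and as total RNA. Every library came from cells carrying CRISPRi (CRISPR interference, repression of a target by a guide RNA with a tethered repressor) and an overexpression construct, grown without treatment in DMEM with serum, sodium pyruvate and L-glutamine, and lysed with cycloheximide.

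The 4 conditions were control (eGFP guide, control construct), construct alone (eGFP guide, Ile TAT construct, which raises tRNA-Ile-UAU), knockdown alone (Ile GAT guide, which lowers tRNA-Ile-GAU, with the control construct) and double modulation (Ile GAT guide with the Ile TAT construct). The study asked how ribosomes occupy isoleucine-rich transcripts when these tRNAs are shifted. Each condition has 2 libraries per assay. The labels call the cells a xenograft cell line and give the molecule as polyA RNA. They do not say whether the guide or construct cells are 1 clone or whether replicates are separate cultures, so the p-values reflect no more than the spread among the sequenced libraries, which may be technical. As bulk measurements, they cannot tell fewer cells expressing a gene from less RNA per cell.

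As background, cells build cholesterol from acetyl-CoA by way of mevalonate, farnesyl diphosphate and squalene, and the enzymes after squalene act on the sterol ring in the endoplasmic reticulum. The transcription factors SREBP1 and SREBP2 (genes SREBF1 and SREBF2) are made as precursors in that membrane. SCAP escorts them to the Golgi, where the proteases MBTPS1 and MBTPS2 release the active factor, and when sterols are plentiful the INSIG proteins hold SCAP back. INSIG1 and the synthesis enzymes are themselves SREBP targets, whereas ABCA1, the cholesterol export pump, is a target of the liver X receptors.

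Total RNA depth was 2512247 to 5446599 counts on genes per library. Footprint depth moved with the guide: it was 358340 to 607919 counts in the 4 eGFP-guide libraries, and 639320 to 938909 in those with the tRNA-Ile-GAU guide. Members together took 0.3277 to 0.4506% of the footprint counts and 0.2165 to 0.2999% of the total RNA counts. In total RNA the 2 double modulation libraries stood apart from each other: their log2(CPM + 1) correlated across genes at 0.963 with a median absolute log2 difference of 0.261, against 0.985 to 0.987 and 0.155 to 0.179 in the other 3 conditions. CPM here is a gene's count scaled to a library total of 1000000 counts on genes. Calls in total RNA and translational efficiency are therefore also given without each of those libraries, but counts of lower values are not. A fit without 1 of them leaves the double modulation with 1 total RNA library, which is assumed to vary like the other groups. Of the line's 7 mesenchymal markers (summed 4169 to 5020 CPM in total RNA), VIM stood at 1669 to 1735 CPM, whereas S100A4 (32.0 to 173 CPM) and LGALS1 (44.1 to 443 CPM) were low in some libraries. ESR1 was 0 to 0.184 CPM, but ERBB2 (29.8 to 58.0 CPM) and EPCAM (12.9 to 21.9 CPM) were detected. Of the hepatocyte and adipocyte markers, TTR, ADIPOQ and FABP4 had no count in any total RNA library, and the summed levels were 0 to 0.734 and 0 to 0.398 CPM. Fibroblast markers summed to 4.38 to 14.58 CPM and endothelial markers to 3.78 to 10.21 CPM. Immune markers summed to 7.06 to 33.05 CPM, of which CD68 was 6.81 to 31.76 CPM.

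Of the sterol genes, 3 fell with the construct in the footprints. With the guides pooled (4 libraries with the construct against 4 without), INSIG1, DHCR7 and SREBF1 fell and none rose, 3 of the 30 members tested, while 0.43% of the 8143 genes tested were called in either direction and 0.295% fell. Of the 30, 25 had a lower value and the median log2 fold change was -0.19, against -0.00 over all genes. In the double modulation against control, DHCR7, INSIG1, SREBF1 and ABCA1 fell and none rose, where 1.93% of all genes were called and 1.4% fell, and 25 of 30 members were lower (median -0.32, all genes 0.01). These 2 comparisons share libraries. The knockdown alone gave 1 call, a fall of EBP (background 1.11%, 0.651% for falls), and the construct alone gave none (background 0.0246%). For the construct alone, 4 members had an unadjusted p under 0.05, and DESeq2 also called 0. A call here is an adjusted p under 0.05 by edgeR's quasi-likelihood test over all genes, with all libraries unless another setting is named.

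**Figure D1:**
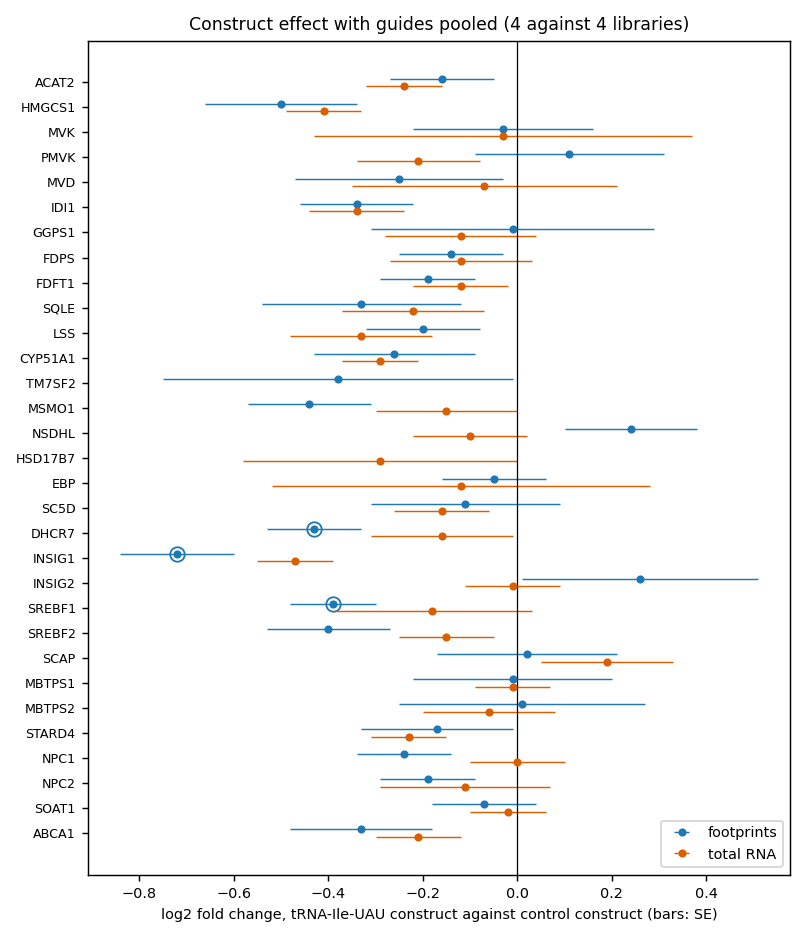
Log2 fold change of the tRNA-Ile-UAU construct against the control construct with the guides pooled (x axis) for each member in pathway order (y axis). Points are fitted values, bars are SE, blue is footprints and orange total RNA, and rings mark the 3 footprint calls, of which INSIG1 at -0.72 lies farthest to the left.

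INSIG1, on chromosome 7 (155297878 to 155310235, GRCh38.p14), gives the retention protein of the SREBP system. Its footprints stood at 222 and 221 CPM in control, 112 and 156 with the construct alone, 200.2 and 231 with the knockdown alone, and 153 and 95.4 in the double modulation. All 4 libraries with the construct lay below all 4 without it. The pooled construct effect was -0.72 ± 0.12 on the log2 scale (SE), 1.65-fold lower (adjusted p = 2.41e-05), from 40 to 191 counts per library. The effect was -0.69 ± 0.18 in eGFP-guide cells (adjusted p = 0.282) and -0.76 ± 0.16 in tRNA-Ile-GAU-guide cells, and the difference between these was -0.07 ± 0.24 (adjusted p = 0.994). In the double modulation against control it was -0.81 ± 0.16 (adjusted p = 0.000727), and without double modulation footprint replicate 2 it was -0.56 with an adjusted p of 0.103.

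INSIG1 total RNA followed the same division by construct. It stood at 467 and 417 CPM in control, 308 and 312 with the construct alone, 322 and 392 with the knockdown alone, and 275 and 253 in the double modulation. The 4 construct libraries again lay below the other 4, without overlap. The pooled effect was -0.47 ± 0.08 (unadjusted p = 0.000174) but did not pass over all 11720 genes by edgeR's quasi-likelihood test (adjusted p = 1). It did pass without double modulation total RNA replicate 1 (-0.49 ± 0.07, adjusted p = 0.000579) or replicate 2 (-0.47 ± 0.07, adjusted p = 0.00121), and in DESeq2 (-0.48 ± 0.09, adjusted p = 0.00322). Translational efficiency, the footprint effect minus the total RNA effect, was -0.26 ± 0.18 for INSIG1 with the construct (adjusted p = 1).

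Other genes of chromosome 7 were lower with the tRNA-Ile-GAU guide, which bears on INSIG1 and CYP51A1. The median over its 371 tested genes in footprints was -0.39 with the knockdown alone and -0.40 in the double modulation, and -0.00 for the pooled construct effect. The guide effect on INSIG1 footprints with constructs pooled was -0.09 ± 0.12, and 323 of the 371 genes had a lower value than INSIG1. In INSIG1 total RNA it was -0.27 ± 0.08 (adjusted p = 0.188), beside a chromosome 7 median of -0.37, and 377 of 553 genes were lower. That effect was -0.29 ± 0.07 without double modulation total RNA replicate 1 and -0.26 ± 0.07 without replicate 2. In the pooled construct effect, 2 of the 371 genes had a lower value than INSIG1 in footprints and 10 of 553 in total RNA.

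The promoter windows of the genes that were called for the construct in footprints are given to show what sequence they hold, together with that of SREBF2. Windows run from 250 bases before to 50 after the annotated start used for each gene, from RefSeq on GRCh38.p14, on the gene's strand. Other starts of a gene were not searched, and the DHCR7 window lies inside that gene's RefSeq span. Capitals mark matches on either strand to CACNCCAC, the core of the sterol regulatory element that SREBPs bind, and to CCAAT, the box bound by NF-Y.
INSIG1, chr7:155297628-155297927, plus strand: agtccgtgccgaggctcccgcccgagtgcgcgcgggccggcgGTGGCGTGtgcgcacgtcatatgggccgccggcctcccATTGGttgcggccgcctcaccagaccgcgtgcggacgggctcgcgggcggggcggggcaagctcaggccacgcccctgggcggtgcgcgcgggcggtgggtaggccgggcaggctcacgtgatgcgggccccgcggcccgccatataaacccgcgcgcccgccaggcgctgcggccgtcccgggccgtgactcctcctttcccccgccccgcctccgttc
DHCR7, chr11:71448344-71448643, minus strand: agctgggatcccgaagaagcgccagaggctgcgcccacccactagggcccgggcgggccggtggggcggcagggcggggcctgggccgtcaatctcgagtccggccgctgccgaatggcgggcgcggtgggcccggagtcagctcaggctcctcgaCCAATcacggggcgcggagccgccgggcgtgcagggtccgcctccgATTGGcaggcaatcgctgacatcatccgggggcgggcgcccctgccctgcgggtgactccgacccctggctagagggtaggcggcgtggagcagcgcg
SREBF2, chr22:41832855-41833154, plus strand: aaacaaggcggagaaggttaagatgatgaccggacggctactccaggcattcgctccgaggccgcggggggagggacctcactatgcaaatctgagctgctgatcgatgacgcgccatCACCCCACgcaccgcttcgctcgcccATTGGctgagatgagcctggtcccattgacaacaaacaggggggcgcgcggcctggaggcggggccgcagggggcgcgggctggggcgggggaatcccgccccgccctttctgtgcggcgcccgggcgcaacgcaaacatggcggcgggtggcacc
SREBF1, chr17:17836937-17837236, minus strand: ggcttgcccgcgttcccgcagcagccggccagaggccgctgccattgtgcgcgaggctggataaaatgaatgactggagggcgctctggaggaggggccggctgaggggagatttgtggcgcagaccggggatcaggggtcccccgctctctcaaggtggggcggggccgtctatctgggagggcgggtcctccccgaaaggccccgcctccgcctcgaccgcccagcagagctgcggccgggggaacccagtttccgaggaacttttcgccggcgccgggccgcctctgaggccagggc

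INSIG1 holds 1 match to each motif, DHCR7 holds 2 CCAAT matches and no core match, and SREBF2 holds 1 of each. The SREBF1 window held neither. Over the 28 members with a window, CACNCCAC was found in 4 (SC5D, INSIG1, SREBF2 and ABCA1), or 14.3%, against 5.48% of 6457 windows of genes tested in footprints. The longer TCACNCCAC, which contains the core, was found in SREBF2 only (1 of 28 members, 1.13% of those windows). CCAAT was found in 17 members (60.7%, against 37.6%) and the GC box GGGCGG in 24 (85.7%, against 72.8%). Of all 27305 windows, 5.74% held CACNCCAC, 1.15% TCACNCCAC, 35.7% CCAAT and 44.6% GGGCGG. The motifs and the windows printed were chosen after the footprint calls were known.

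Of the SREBP genes, SREBF1 fell with the construct in footprints and SREBF2 had a lower value that did not pass. SREBF1, on chromosome 17 (17811334 to 17836986), gives SREBP1, the factor best known for fatty acid synthesis genes. Its footprints were 497 and 538 CPM in control, 522 and 403 with the construct alone, 537 and 545 with the knockdown alone, and 364 and 359.8 in the double modulation. The 2 double modulation libraries were the lowest of the 8, and 1 library with the construct alone reached the range of the control. The pooled construct effect was -0.39 ± 0.09 (adjusted p = 0.00775), and the double modulation against control gave -0.53 ± 0.12 (adjusted p = 0.0052).

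The construct effect on SREBF1 was -0.19 ± 0.13 in eGFP-guide cells and -0.59 ± 0.12 in tRNA-Ile-GAU-guide cells, and this difference did not pass (-0.39 ± 0.18, adjusted p = 0.825). SREBF1 total RNA ranged from 40.1 to 88.6 CPM, and those extremes were double modulation replicate 2 and knockdown replicate 1. Its total RNA effect in the double modulation was -0.04 ± 0.29 and its translational efficiency -0.50 ± 0.35 (adjusted p = 0.94). The latter was -0.89 ± 0.20 without double modulation total RNA replicate 2 (adjusted p = 0.00321, 7.75% of all genes called) and 0.13 ± 0.23 without replicate 1 (adjusted p = 0.976), so its sign turned on which library was left. The pooled footprint call was lost without control replicate 2 or construct-alone replicate 2 and at equal depth, with adjusted p-values up to 0.507 over the alternatives, and the double modulation call was lost without control replicate 2 (adjusted p = 0.226). SREBF1 overlaps RAI1 in RefSeq, and strand handling in counting is not stated.

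SREBF2 (chromosome 22, 41833105 to 41907305), whose product SREBP2 drives the cholesterol genes, had footprints of 128 and 150.2 CPM in control, 94.9 and 105 with the construct alone, 127 and 141 with the knockdown alone, and 104 and 111 in the double modulation. The 4 construct libraries lay below the other 4, though the effect did not pass over all genes (-0.40 ± 0.13, adjusted p = 0.241). Its total RNA ran from 74.2 to 106 CPM and overlapped between constructs (-0.15 ± 0.10, adjusted p = 1).

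INSIG2, the second retention protein, had footprints of 23.0 and 23.1 CPM in control, 25.1 and 30.9 with the construct alone, 21.2 and 33.8 with the knockdown alone, and 34.1 and 29.7 in the double modulation. These rest on 9 to 32 counts per library. Both control libraries lay below the construct-alone and double modulation libraries and within the range of the knockdown alone, and with guides pooled the constructs overlapped. Its pooled construct effect was 0.26 ± 0.25 (adjusted p = 0.894), above 0 where that of INSIG1 was below. INSIG2 total RNA was 52.5 and 54.2 CPM in control, 64.2 and 55.6 with the construct alone, 63.1 and 68.6 with the knockdown alone, and 54.3 and 62.1 in the double modulation, with overlap between constructs.

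SCAP, the escort, had footprints of 51.0 and 59.4 CPM in control, 53.0 and 60.0 with the construct alone, 42.4 and 43.5 with the knockdown alone, and 46.9 and 37.5 in the double modulation. Here the division followed the guide: all 4 tRNA-Ile-GAU-guide libraries were below the 4 eGFP-guide libraries, yet the effect did not pass (-0.40 ± 0.19, adjusted p = 0.332). SCAP total RNA was 29.5 and 33.6 CPM in control, 30.5 and 37.0 with the construct alone, 32.8 and 33.2 with the knockdown alone, and 48.5 and 31.8 in the double modulation, with no division by guide. The proteases MBTPS1 and MBTPS2 had pooled footprint construct effects of -0.01 ± 0.21 and 0.01 ± 0.26, and neither was called in any comparison.

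**Figure D2:**
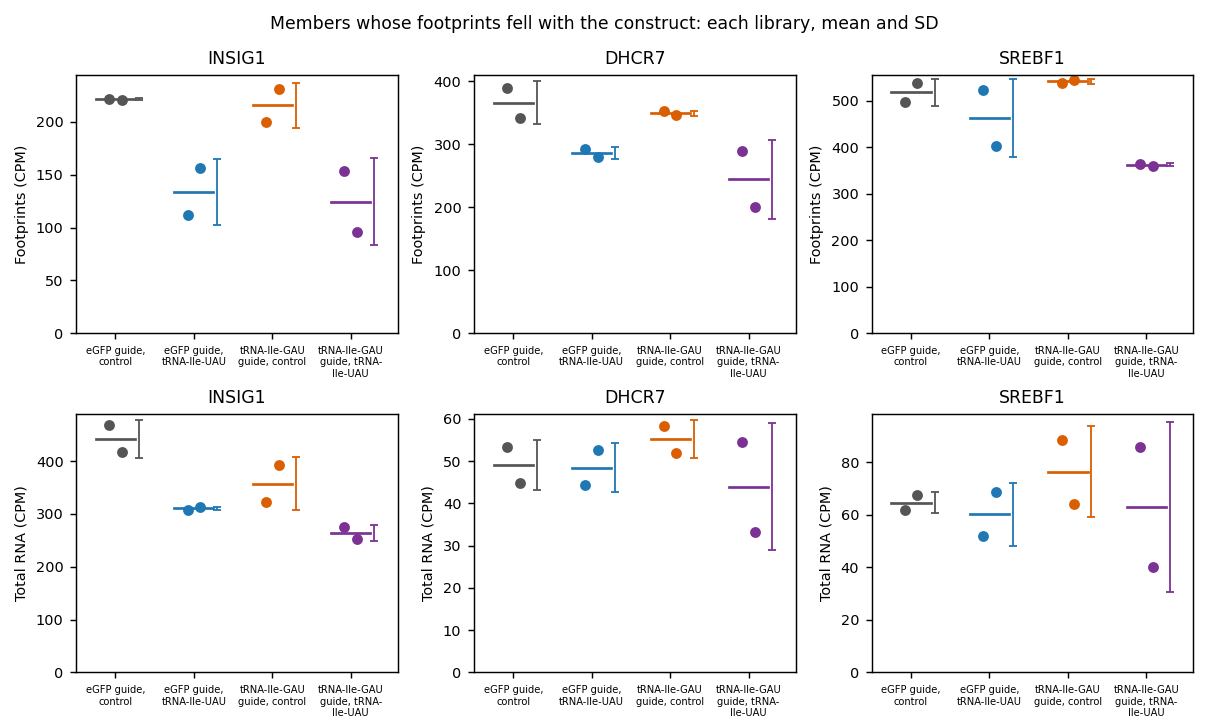
Footprints (top) and total RNA (bottom) in CPM (y axis) for INSIG1, DHCR7 and SREBF1 in the 4 conditions (x axis). Dots are libraries, horizontal lines are means and vertical bars SD (n = 2). INSIG1 is lower in the construct conditions in both assays, whereas DHCR7 and SREBF1 total RNA overlap between conditions.

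Among the sterol ring enzymes, DHCR7 fell with the construct. DHCR7 (chromosome 11, 71427287 to 71449043) reduces 7-dehydrocholesterol to cholesterol, the last reaction of the pathway. Its footprints were 389.9 and 342 CPM in control, 293 and 279 with the construct alone, 352 and 347 with the knockdown alone, and 289 and 200.2 in the double modulation. The 4 libraries with the construct all lay below the 4 without. The pooled construct effect was -0.43 ± 0.10 (adjusted p = 0.00775), and the double modulation against control gave -0.57 ± 0.14 (adjusted p = 0.00662). The pooled call was lost without control replicate 1, construct-alone replicate 2 or double modulation replicate 2, by DESeq2 and at equal depth (adjusted p up to 0.28 over the alternatives). The double modulation call was lost without control replicate 1 or double modulation replicate 2 and at equal depth (adjusted p up to 0.296).

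DHCR7 total RNA showed no such division: 53.3 and 44.9 CPM in control, 44.4 and 52.5 with the construct alone, 58.3 and 52.0 with the knockdown alone, and 54.5 and 33.3 in the double modulation. The pooled total RNA effect was -0.16 ± 0.15, and translational efficiency was -0.28 ± 0.20 with the construct and -0.43 ± 0.28 in the double modulation (adjusted p = 1 and 0.94). The latter was -0.68 ± 0.21 without double modulation total RNA replicate 2 (adjusted p = 0.0351) and -0.05 ± 0.24 without replicate 1 (adjusted p = 0.996).

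CYP51A1, the lanosterol demethylase, fell in total RNA. It lies on chromosome 7 (92112153 to 92134803). Total RNA was 220.1 and 196 CPM in control, 163 and 169 with the construct alone, 137 and 155 with the knockdown alone, and 126 and 118 in the double modulation. Control was the highest group and double modulation the lowest, with no overlap among the 4 conditions. The double modulation effect was -0.78 ± 0.11 (adjusted p = 0.0493, background 0.0683%, 0.0512% for falls) and the guide effect with constructs pooled -0.48 ± 0.08 (adjusted p = 0.0241, background 1.08%, 0.896% for falls). The chromosome 7 median for the guide in total RNA was -0.37, and 145 of 553 genes there were lower than CYP51A1. How much of the decrease of CYP51A1 goes with that of its chromosome was not tested.

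The construct effect on CYP51A1 total RNA was -0.31 ± 0.11 in eGFP-guide cells and -0.28 ± 0.11 in tRNA-Ile-GAU-guide cells, where the pooled chromosome 7 median was 0.00. Pooled, it was -0.29 ± 0.08 and did not pass (adjusted p = 1). Its footprints were 95.4 and 67.7 CPM in control, 50.2 and 70.3 with the construct alone, 61.2 and 45.9 with the knockdown alone, and 49.0 and 50.1 in the double modulation. Both control libraries lay above those of the knockdown alone and the double modulation, and overlapped the construct alone. The double modulation effect was -0.74 ± 0.23 (adjusted p = 0.0739). The total RNA call for the double modulation was lost without either control replicate, with the replicate block or with only the groups compared, and the guide call without any 1 of the control, construct-alone or knockdown libraries or with the block. Adjusted p-values rose to 0.906 and 0.208. CYP51A1 has 3 named pseudogenes with which reads could be shared.

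EBP, the sterol isomerase on the X chromosome (48521808 to 48528716), was the 1 member called in the footprints of the knockdown alone. Its footprints were 234 and 216 CPM in control, 189.8 and 189 with the construct alone, 165 and 145 with the knockdown alone, and 189 and 153 in the double modulation. The 4 tRNA-Ile-GAU-guide libraries lay below the 4 eGFP-guide libraries, by a narrow gap at 189 CPM. The knockdown effect was -0.55 ± 0.15 (adjusted p = 0.0468). The call was lost without any 1 of the control or knockdown libraries, by DESeq2, without a low-count filter, without chromosome 7 genes or at equal depth, with adjusted p-values up to 0.687.

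EBP total RNA was 10.3 and 12.3 CPM in control, 8.50 and 12.2 with the construct alone, 16.4 and 12.6 with the knockdown alone, and 21.8 and 4.29 in the double modulation. The double modulation pair spanned the range of all 8 libraries. The translational efficiency effect of the knockdown was -0.88 ± 0.56 (adjusted p = 1). MVK (23.3 and 4.79 CPM) and MVD (26.4 and 10.3 CPM) split between the same 2 double modulation total RNA libraries, replicate 1 being the higher in each case.

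The other sterol ring members gave no call in any comparison with all libraries and the main settings. In the pooled construct effect, footprints of MSMO1, a sterol methyl oxidase, came nearest (-0.44 ± 0.13, adjusted p = 0.13), with 4 construct libraries at 86.0 to 128 CPM and 4 others at 132 to 180.2 CPM. MSMO1 passed there without knockdown replicate 2 (-0.55 ± 0.14, adjusted p = 0.0241) or double modulation replicate 1 (-0.59 ± 0.15, adjusted p = 0.0147). In the double modulation it passed with the replicate block or without double modulation replicate 1. FDFT1 (squalene synthase), LSS (the cyclase that forms lanosterol), IDI1 and NPC1 also had every construct library below every other footprint library, at -0.19 ± 0.10, -0.20 ± 0.12, -0.34 ± 0.12 and -0.24 ± 0.10. With IDI1, FDFT1, LSS, MSMO1, DHCR7, INSIG1, SREBF2 and NPC1, 8 of the 31 members were divided this way, against 1.68% of 9174 genes, and 0 in the opposite direction (1.58% of genes). SQLE, squalene epoxidase, had -0.33 ± 0.21 and SC5D, a sterol desaturase, -0.11 ± 0.20. NSDHL, which acts in removing the C4 methyl groups, was higher at 0.24 ± 0.14 (adjusted p = 0.748).

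TM7SF2, a sterol reductase, and HSD17B7, a ketosteroid reductase, had low counts in both assays. TM7SF2 had 3 to 28 counts per total RNA library and 4 to 16 per footprint library. HSD17B7 had 9 to 29 counts per total RNA library and 1 to 11 per footprint library. TM7SF2 was not tested in total RNA, nor HSD17B7 in footprints. TM7SF2 footprints, at 4.83 to 25.1 CPM, gave -1.09 ± 0.50 in the double modulation (adjusted p = 0.343), the lowest value of any member but with the widest error.

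Of the 8 mevalonate and isoprenoid genes none was called in either assay with all libraries. In the pooled construct effect, 7 of 8 were lower in footprints (median -0.15) and 8 of 8 in total RNA (median -0.17). The total RNA count rests on both double modulation libraries, which differed for MVK (23.3 and 4.79 CPM) and MVD (26.4 and 10.3 CPM). HMGCS1, which makes HMG-CoA, had the lowest values, with footprints at 95.4 and 77.6 CPM in control, 53.0 and 78.9 with the construct alone, 105 and 103 with the knockdown alone, and 73.5 and 54.7 in the double modulation. Its footprints overlapped narrowly between constructs (-0.50 ± 0.16, adjusted p = 0.172). Its total RNA did not: the 4 construct libraries were at 84.5 to 107 CPM and the other 4 at 116 to 128 (-0.41 ± 0.08, adjusted p = 1).

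IDI1, the isopentenyl diphosphate isomerase, was lower with the construct without overlap in both assays, at 119 to 153 against 157 to 187 CPM in footprints and 162 to 191 against 201 to 246 CPM in total RNA. ACAT2, which joins acetyl-CoA units at the entry to the pathway, had -0.16 ± 0.11 in footprints and -0.24 ± 0.08 in total RNA. MVK and MVD, a kinase and a decarboxylase of the mevalonate steps, had -0.03 ± 0.19 and -0.25 ± 0.22 in footprints. FDPS, the farnesyl diphosphate synthase, had -0.14 ± 0.11 and GGPS1, which makes geranylgeranyl diphosphate, -0.01 ± 0.30. PMVK, phosphomevalonate kinase, was the 1 of the 8 above 0 (0.11 ± 0.20). FDPS has 10 named pseudogenes and IDI1 has 3, so their counts are uncertain.

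**Figure D3:**
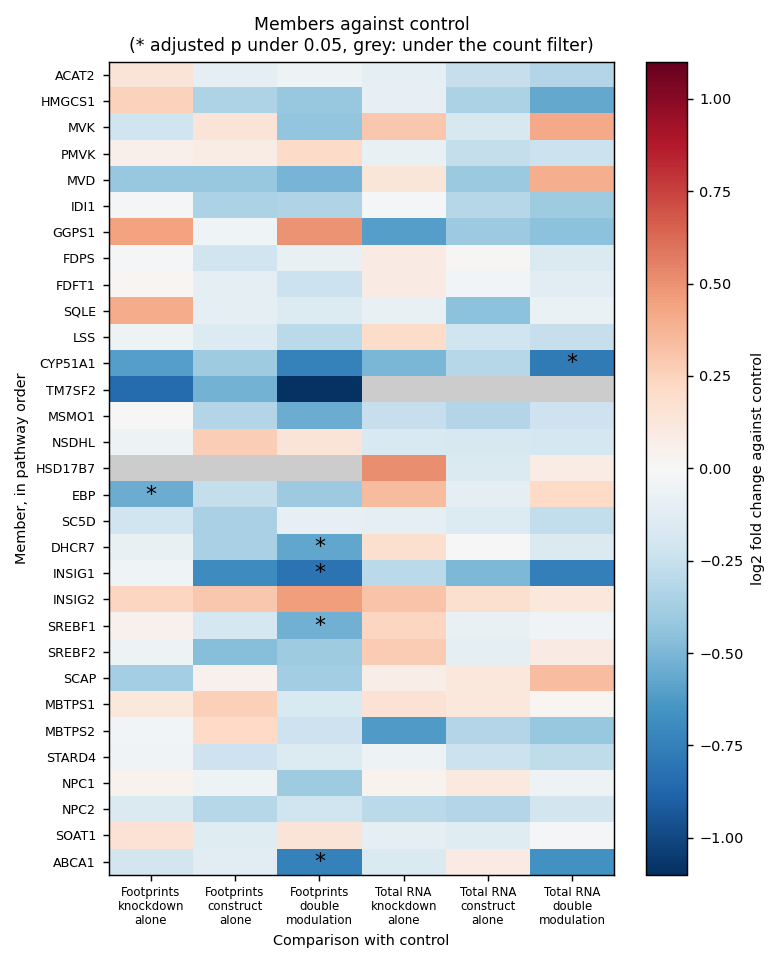
Log2 fold change against control for the 31 members in pathway order (y axis) in each condition and assay (x axis). Blue is lower, red higher, grey marks genes under the count filter and asterisks mark an adjusted p under 0.05. The 6 asterisks are all on falls, and blue is most frequent in the footprints of the double modulation.

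Among the genes of traffic, storage and export, ABCA1 fell. ABCA1, on chromosome 9 (104781006 to 104928155), exports cholesterol to apolipoproteins. Its footprints were 110.2 and 112 CPM in control, 100.5 and 105 with the construct alone, 121 and 73.7 with the knockdown alone, and 74.6 and 57.9 in the double modulation. The double modulation was lowest apart from 1 knockdown library in its range. The double modulation effect was -0.74 ± 0.21 (adjusted p = 0.0321). The call was lost without either control replicate, without double modulation replicate 2, with no low-count filter and at equal depth. DESeq2 gave no adjusted p for ABCA1 there. Over the alternatives the log2 fold change was -0.94 to -0.60.

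ABCA1 total RNA was 268 and 258 CPM in control, 289.8 and 264 with the construct alone, 258 and 209.8 with the knockdown alone, and 172 and 161 in the double modulation. Both double modulation libraries lay below the other 6. The guide effect with constructs pooled was -0.46 ± 0.09 (adjusted p = 0.0444) and was lost without any 1 of the 6 other libraries, without chromosome 7 genes or with the replicate block (adjusted p up to 0.271). The construct effect was 0.09 ± 0.12 in eGFP-guide cells and -0.50 ± 0.12 in tRNA-Ile-GAU-guide cells. The difference was -0.59 ± 0.17 (adjusted p = 0.998) and passed without double modulation total RNA replicate 2 (-0.57 ± 0.15, adjusted p = 0.0284, 4.42% of all genes called) but not without replicate 1 (-0.60 ± 0.15, adjusted p = 0.191). ABCA1 overlaps NIPSNAP3B in RefSeq.

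STARD4, a cytosolic sterol carrier, was lower with the construct in total RNA without overlap, at 175 to 198 CPM against 206 to 239.6 (-0.23 ± 0.08, adjusted p = 1). NPC1 and NPC2, which move cholesterol out of lysosomes, had footprint construct effects of -0.24 ± 0.10 and -0.19 ± 0.10, and SOAT1, which esterifies cholesterol for storage, -0.07 ± 0.11. None of these 4 was called with all libraries.

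**Figure D4:**
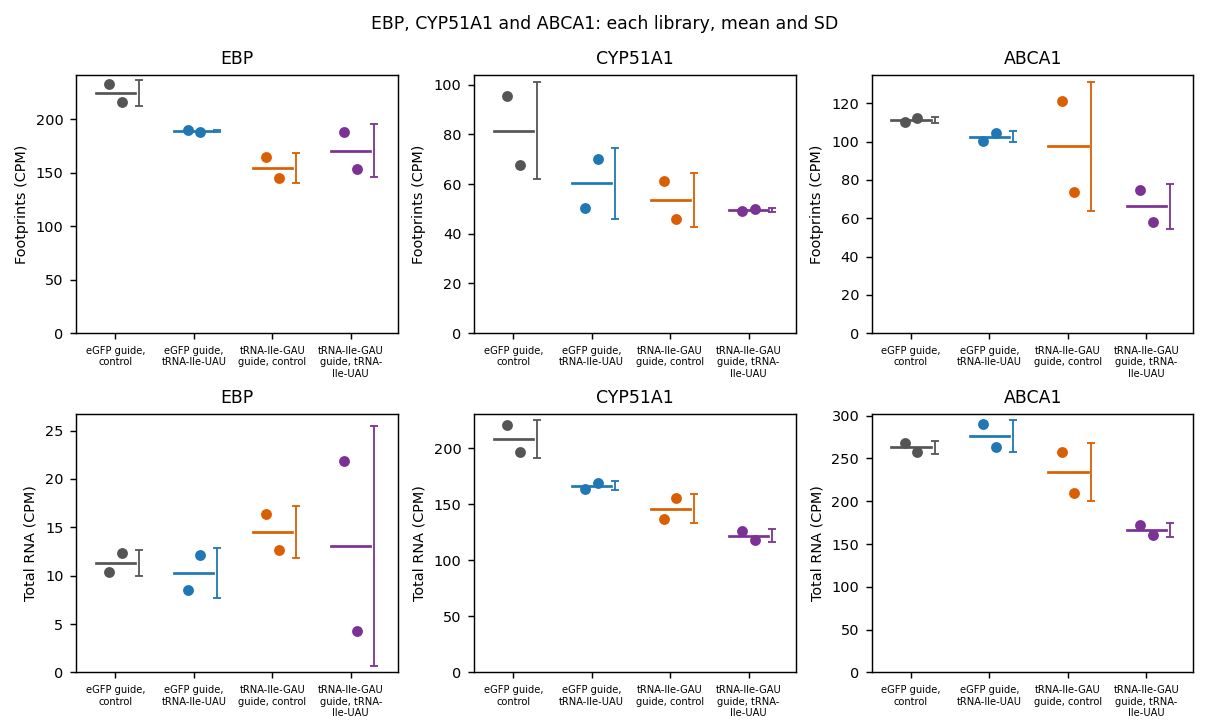
Footprints (top) and total RNA (bottom) in CPM (y axis) for EBP, CYP51A1 and ABCA1 in the 4 conditions (x axis). Dots are libraries, horizontal lines are means and vertical bars SD (n = 2). CYP51A1 and ABCA1 total RNA are lowest in the double modulation, and the EBP total RNA pair there runs from 4.29 to 21.8 CPM.

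The 2 guide backgrounds share no libraries, so the construct effect can be set side by side in them. The pooled construct effect is the mean of the effects in these 2 backgrounds, so this comparison is no separate test of it. In footprints 20 of 30 members were lower with the construct in both (66.7%, against 26.6% of 8143 genes), and PMVK, NSDHL and INSIG2 were higher in both. The median was -0.17 in eGFP-guide cells and -0.20 in tRNA-Ile-GAU-guide cells. In total RNA 15 of 30 were lower in both (50%, against 19.4% of 11720 genes) and SCAP was higher in both. No member passed for the difference between the backgrounds in footprints (1 at an unadjusted p under 0.05, background 0.0614%) or in total RNA (1 at an unadjusted p under 0.05) by edgeR's quasi-likelihood test. This comparison was added after the pooled results were known.

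**Figure D5:**
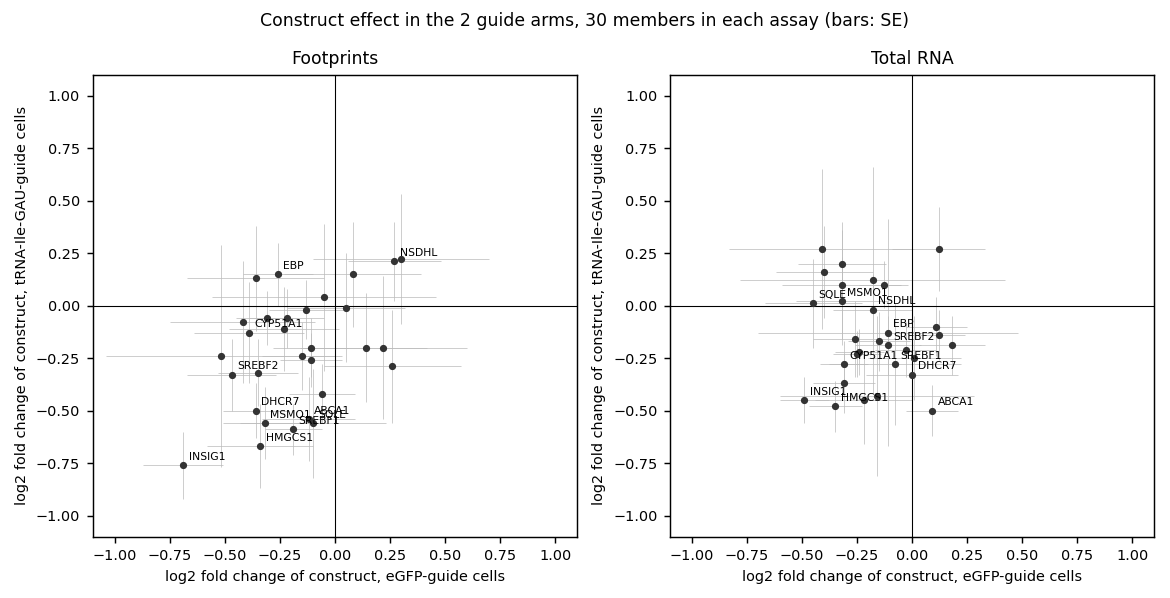
Construct effect of each tested member in eGFP-guide cells (x axis) against tRNA-Ile-GAU-guide cells (y axis), as log2 fold change with SE bars, for footprints (left) and total RNA (right). INSIG1 is at -0.69 and -0.76 in footprints, and 20 of 30 members lie to the lower left of the 0 lines.

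In total RNA the pooled construct effect had 28 of 30 members lower (median -0.15, all genes 0.01 with 45.3% lower), with 0 calls by edgeR among members and among all genes, 7 members at an unadjusted p under 0.05 and 1 call by DESeq2. That count of lower members rests on both double modulation libraries, between which MVK, MVD and EBP split. It was not repeated without each of them. HMGCS1, IDI1, INSIG1 and STARD4 had all construct libraries below all others, against 0.812% of 12431 genes, and none was divided in the opposite direction (1.13%). Without double modulation replicate 1, HMGCS1, LSS, CYP51A1, INSIG1 and SREBF1 fell (1.29% of all genes called), and without replicate 2, HMGCS1, IDI1 and INSIG1 fell (0.604%). The knockdown alone and the construct alone called no member in total RNA (backgrounds 0.0256% and 0%, 4 and 5 members at an unadjusted p under 0.05, and DESeq2 also 0 in both). The double modulation against control called CYP51A1 with all libraries. It called 5 members without replicate 1 (HMGCS1, FDPS, CYP51A1, INSIG1 and ABCA1, all falls, 2.51% of all genes called). Without replicate 2 it called 11, with falls of HMGCS1, IDI1, CYP51A1, INSIG1, STARD4 and ABCA1 and rises of MVK, MVD, EBP, SCAP and TM7SF2, where 15.8% of all genes were called. TM7SF2 was under the low-count filter with all libraries and passed it here through the 1 double modulation library left, at 28 counts, so its call supports nothing.

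For the guide, 0 of 30 members were called in footprints (5 at an unadjusted p under 0.05, background 2.68%, DESeq2 also 0) and CYP51A1 and ABCA1 in total RNA. MVK, EBP and SCAP had all 4 tRNA-Ile-GAU-guide footprint libraries below the eGFP-guide ones, against 3.71% of genes. CYP51A1 and ABCA1 did in total RNA (2 of 31 members, against 5.09% of genes), ABCA1 by a narrow gap at 257.71 against 257.93 CPM. No member was divided the other way (3.14% of genes in footprints and 3.32% in total RNA). Without double modulation total RNA replicate 1, the guide effect was -0.49 for CYP51A1, -0.47 for ABCA1 and -0.29 for INSIG1. Without replicate 2 it was -0.48, -0.46 and -0.26. In that second fit MVK (0.78), MVD (0.69), EBP (0.66), SREBF1 (0.33) and SREBF2 (0.33) had values above 0.

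In translational efficiency 0 of 29 members were called in any comparison by edgeR, and 0 of 8012 genes. At an unadjusted p under 0.05 there were 3 members in the double modulation, 2 for the guide, 1 for the knockdown alone and 0 for the construct. Without double modulation total RNA replicate 2, 8 members were called lower in the double modulation (MVK, MVD, EBP, DHCR7, SREBF1, SREBF2, SCAP and, with the same limit, TM7SF2), beside 7.75% of all genes, and without replicate 1 none was. The median effect of the construct was -0.02 in members and in all genes.

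Genes of neighbouring pathways were read from lists written with earlier results of these data known. Of 13 fatty acid genes that SREBPs act on, 12 were tested in footprints. FASN (fatty acid synthase, -0.48 ± 0.07, adjusted p = 2.07e-06), SCD (a desaturase, -0.44 ± 0.08, adjusted p = 9.95e-05) and FADS2 (-0.44 ± 0.08, adjusted p = 0.000143) fell with the construct. All 12 had a value below 0 (median -0.20), against 50.2% of all genes (median -0.00), of which 0.43% were called. In the double modulation FASN (-0.66 ± 0.10), SCD (-0.69 ± 0.11), FADS1 (-0.45 ± 0.13) and FADS2 (-0.53 ± 0.11) fell. There 11 of 12 were lower (median -0.42), against 49.1% of all genes (median 0.01), of which 1.93% were called. In total RNA all 13 were tested and none was called in any comparison. With the construct 11 of those 13 were lower in total RNA (median -0.14), against 45.3% of all genes (median 0.01).

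Of 6 tested genes of the liver X receptors and their targets, LPCAT3, a phospholipid acyltransferase, fell in the footprints of the double modulation (-0.82 ± 0.22, adjusted p = 0.0224) and with the guide. Of 14 tested sterol transport and storage genes, LRP1, a lipoprotein receptor, rose with the knockdown alone (0.57 ± 0.15, adjusted p = 0.0201) and with the guide. CAV1, of caveolae and on chromosome 7, fell in the double modulation (-0.47 ± 0.11, adjusted p = 0.00268) and with the guide. Over all genes, 1.11% were called in footprints with the knockdown alone, 1.93% in the double modulation and 2.68% with the guide. None of the 11 tested genes for endoplasmic reticulum turnover of sterol enzymes, 11 of the isoprenoid branches and 12 of SREBP transport and turnover was called in footprints in any comparison. For the pooled construct effect, 1 gene in each of those 3 lists had an unadjusted p under 0.05.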

How the data were processed

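Gene counts were the authors' deposited read counts per gene symbol, as HTSeq writes them. Per the submitters' processing notes, cutadapt 1.17, STAR 2.5.2a and HTSeq were used with build hg38. Order, settings, annotation and strand are not given in the sources used here. The 5 summary lines per file were left out. HTSeq set aside 97.0 to 98.8% of footprint alignments and 97.2 to 98.1% of total RNA alignments as not unique. A gene missing from a footprint file was counted 0.

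Members, lists and named-gene rule were chosen with earlier results of these data known. The rule gives library values to members called in any of 18 tests and to INSIG1, INSIG2, SREBF1, SREBF2 and SCAP. Role groups, the non-overlap counts (genes with a mean of at least 5 counts), the motifs and the construct effect within knockdown cells were chosen after the files were seen.

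Groups came from the titles. Each assay's 8 libraries were fitted with edgeR 4.0.16 (R 4.3.3) by its quasi-likelihood test with group means, filterByExpr (minimum count 10, total 15), TMM scaling and Benjamini-Hochberg adjustment over all genes, with 4 residual degrees of freedom. Translational efficiency was the footprint minus the total RNA contrast in 1 fit of 16 libraries (8 residual degrees of freedom). The biological coefficient of variation was 6.71% in footprints and 14.3% in total RNA. Errors beside log2 fold changes are SE. For edgeR they were derived from the test, as the absolute log2 fold change divided by the square root of its F statistic. Such errors are unreliable where there is almost no change, as for the pooled footprint construct effects of MBTPS1, MBTPS2 and GGPS1. CPM was computed from library totals without TMM. The fits of each assay and of translational efficiency were tested on simulated data with known changes, for the pooled construct and double modulation comparisons. Alternatives were RLE scaling, no filter, a replicate block, DESeq2 1.42.0, only the groups compared, no chromosome 7 genes, footprints thinned to equal depth, and leaving out each library. Positions are from RefSeq GRCh38.p14. Codon content was not analysed here.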

Additional observations from a re-analysis of the deposited data

How the results depend on the processing

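With 2 libraries a group and as few as 9 footprint counts in a library for INSIG2, smaller differences than those called may not have been detectable at this depth. The pooled construct fall of INSIG1 was kept in 13 of 13 alternatives that gave a value (log2 fold change -0.93 to -0.60, adjusted p 5.09e-08 to 0.00633). Each other named call was lost in at least 1. A named value was taken as reversed where its sign changed and it was called in either fit, and there were 0.

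Numbers of members called moved as follows. In footprints, the knockdown alone went from 1 to 0 without the low-count filter, without chromosome 7 genes, by DESeq2 and at equal depth. Over all genes its count went from 90 to 75, 42, 22 and 45 in those settings. The construct alone went from 0 to 1 with only the groups compared (all genes 2 to 8). At equal depth the double modulation went from 4 to 2 (all genes 157 to 74) and the pooled construct from 3 to 1 (all genes 35 to 20). In total RNA, the double modulation went from 1 to 4 with no filter, to 3 by DESeq2 and to 0 with the replicate block, without chromosome 7 genes or with only the groups compared, while the count over all genes went from 8 to 185, 41, 1, 4 and 0. The total RNA guide count went from 2 to 0 with the block or without chromosome 7 genes (all genes 126 to 53 and 14). The pooled construct went from 0 to 1 with no filter or DESeq2 (all genes 0 to 11 and 4). The knockdown alone went from 0 to 1 with no filter or only the groups compared (all genes 3 to 99 and 236). The construct alone went from 0 to 1 with only the groups compared (all genes 0 to 4). The cause was not tested.

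Leaving out 1 library at a time leaves its group with 1, which is assumed to vary like the other groups. It gave these ranges in footprints: 0 to 0 for the knockdown alone, 0 to 0 for the construct alone, 1 to 5 for the double modulation (all genes 35 to 133), 0 to 1 for the guide (123 to 215) and 1 to 4 for the construct (7 to 55). In total RNA the double modulation ran from 0 to 11 (all genes 0 to 1854), the guide from 0 to 8 (6 to 1820), the construct from 0 to 5 (0 to 150.0) and the difference between backgrounds from 0 to 1 (0 to 520.0). In translational efficiency the double modulation ran from 0 to 8 (all genes 0 to 622) and the guide from 0 to 4 (0 to 415).

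The replicate numbers do not pair the libraries: deviations from the group means correlated between same-numbered libraries at -0.04 to 0.06 in footprints and -0.42 to 0.36 in total RNA. With the replicate block, the footprint guide count went from 0 to 1 (all genes 218 to 264) and the double modulation count from 4 to 6 (all genes 157 to 209).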
